A study of Mus musculus with 24 samples.

Results

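The 8 members of the mouse OAS family described here, Oas1a, Oas1b, Oas1c, Oas1g, Oas2, Oas3, Oasl1 and Oasl2, were measured by polyA RNA-Seq in 4 tissues (tongue, muscle, stomach and heart). The Trex1-/- mice either received SN-011, an antagonist of the DNA-sensing adaptor STING, or were left without it. A gene was a member if its Ensembl identifier had 1 of these 8 symbols in GENCODE release M21, which gave 8 of the 54532 genes counted. Both groups carried the Trex1-KO genotype on the C57BL/6J background, and each tissue had 3 control and 3 SN-011 samples, 24 samples in all. The labels give 5 mg/kg SN-011 on 3 occasions a week over 4 weeks and list the controls as untreated, while the study's methods give 10 mg/kg daily for 2 weeks from 1 month of age, with a vehicle of Tween 80 in PBS as the control. The mice came from crosses of heterozygous parents, Trex1 is lost from every cell type, and no wild-type tissue was analysed here, so these libraries give no level of the members in mice with Trex1. Nothing in the labels says that the 3 samples of a group came from separate mice, and p-values then measure only the spread between these samples.

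The OAS proteins are interferon-induced enzymes that bind double-stranded RNA and join ATP into short 2′-5′-linked oligoadenylates, known as 2-5A. 2-5A acts as a messenger that leads to the cutting of viral and cellular RNA, and phosphodiesterases such as Pde12 and Akap7 take it apart again. Interferon receptors drive transcription of the genes through factors that bind interferon-stimulated response elements in promoters. In Trex1-/- mice, DNA that is not cleared activates cGAS and STING, which leads to type I interferon in tissues.

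All 8 members lie on chromosome 5 (GRCm38), in a cluster of 6 genes and a separate pair. The cluster holds Oas2 (ENSMUSG00000032690, 120730333 to 120749853, minus strand), Oas3 (ENSMUSG00000032661, 120753098 to 120777661, minus), Oas1c (ENSMUSG00000001166, 120800194 to 120812514, minus), Oas1b (ENSMUSG00000029605, 120812635 to 120824163, plus), Oas1g (ENSMUSG00000066861, 120876142 to 120887613, minus) and Oas1a (ENSMUSG00000052776, 120896256 to 120907521, minus). The pair is Oasl2 (ENSMUSG00000029561, 114896936 to 114912234, plus) and Oasl1 (ENSMUSG00000041827, 114923240 to 114937915, plus). Of the 8, GENCODE types Oas1b as a polymorphic pseudogene and the other 7 as protein coding; the Oas1b of C57BL/6 mice is known to carry a premature stop. Counts of Oas1a and Oas1g need care, because 40.9% of the 100-base windows of the Oas1a transcript were found letter for letter in Oas1g, and 38.2% of those of Oas1g in Oas1a. No such window of the other 6 members was found in another gene's transcripts. With windows of 50 bases, 10.7% of those of Oas1c were found in Oas1d, Oas1e, Oas1f or Oas1h. Other genes held 3.19% of those of Oas1b and 0.471% of those of Oas3, and none of those of Oas2, Oasl1 and Oasl2. Exons of Oas1c overlapped the opposite-strand gene Gm43069 over 227 bases and those of Oasl1 overlapped Gm13822 over 38 bases, and whether counting used strand is not given in the sources used here.

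The promoters were searched for the core of the interferon-stimulated response element, taken as GAAA, any 2 bases and GAAA again, on both strands, in RefSeq windows (GRCm38.p6) from 250 bases before to 50 bases after each start site. Windows of 6 members were in that table, and 4 of the 6 held the core, against 3.44% of all 32851 windows. The 120 bases before the start are shown for Oas1a, Oas1g, Oas1c and Oas3, which held it, and for Oasl1, the member with the lowest p-values between the groups in the heart and the tongue, which did not. They are written 5′ to 3′ on the strand of the gene, with the matches in capitals.
Oas1a, chr5:120907526-120907645, minus strand: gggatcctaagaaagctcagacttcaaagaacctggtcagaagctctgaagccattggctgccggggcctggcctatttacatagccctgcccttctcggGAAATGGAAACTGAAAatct
Oas1g, chr5:120887614-120887733, minus strand: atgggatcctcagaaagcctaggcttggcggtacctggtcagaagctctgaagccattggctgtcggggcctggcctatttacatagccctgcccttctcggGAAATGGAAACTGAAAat
Oas1c, chr5:120812515-120812634, minus strand: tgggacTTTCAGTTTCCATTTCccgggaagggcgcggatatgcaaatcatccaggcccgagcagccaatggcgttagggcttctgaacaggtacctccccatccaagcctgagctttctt
Oas3, chr5:120777660-120777779, minus strand: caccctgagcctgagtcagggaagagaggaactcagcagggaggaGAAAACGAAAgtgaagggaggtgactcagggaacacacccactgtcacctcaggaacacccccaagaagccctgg
Oasl1, chr5:114923120-114923239, plus strand: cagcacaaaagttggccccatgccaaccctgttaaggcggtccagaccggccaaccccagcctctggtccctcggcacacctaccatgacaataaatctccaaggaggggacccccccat

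In Oas1a and Oas1g, 2 overlapping cores made up the same 16-base run, GAAATGGAAACTGAAA, which began 20 bases before the start of Oas1a and 18 bases before that of Oas1g. Set side by side with a shift of 2 bases, these stretches of Oas1a and Oas1g had 108 identical bases of 118. The window of Oas1c held the same 16 bases on its opposite strand. Oas1b starts only 121 bases away on that other strand, and the run lay 22 to 7 bases before the start GENCODE gives for Oas1b, so that Oas1b and Oas1c face away from a stretch that both share. Over all windows, 0.0213% held these 16 bases, and the genes were Oas1a, Oas1c, Oas1g, Apol9a and Apol9b. A match is a description of the letters and no evidence of binding, and a window without one says nothing of the factor.

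The total count per sample was 14253416 to 18443329, and CPM is the counts scaled to a library of fixed size. On total counts alone, 3 counts, taken as the least that can be shown, were 0.163 to 0.210 CPM. The CPM values given for genes are also scaled within a tissue, which shifts this floor from library to library. Trex1 had 0 counts in all 24 libraries, but the gene lies within Atrip on the same strand, so its counts do not check the genotype. Control replicate 1 of every tissue differed from all other libraries in sex markers, with at least 3060 counts of Xist and at most 3 of Ddx3y, against at most 20 of Xist and at least 825 of Ddx3y elsewhere. In the muscle, SN-011 replicate 2 had counts for 11546 genes, where every other library had at least 19798. Markers of each tissue were highest in their own tissue, but the 8 stomach markers summed to 26.1 to 2976 CPM in heart controls and 53.1 to 3190.5 CPM in tongue controls, against 6.65 to 51.0 and 15.1 to 47.1 CPM with SN-011. The sum was 50101 to 164938 CPM in stomach controls. None of the 10 leukocyte markers was at 0 in any group.

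Expression of the members in control mice was first compared across the 4 tissues. Levels are given as RPKM, counts per kilobase of merged exons at a fixed library size, scaled over all 24 libraries. All 8 members were expressed in every tissue, and each was lowest in the muscle. The summed CPM of the family, scaled within each tissue, was 2261 ± 325 in the stomach, 1634 ± 421 in the tongue, 1144 ± 245 in the heart and 157 ± 30.0 in the muscle (SD, n = 3 each). These sums carry no scaling between tissues, so the gaps between them are not those of the RPKM.

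**Figure D1:**
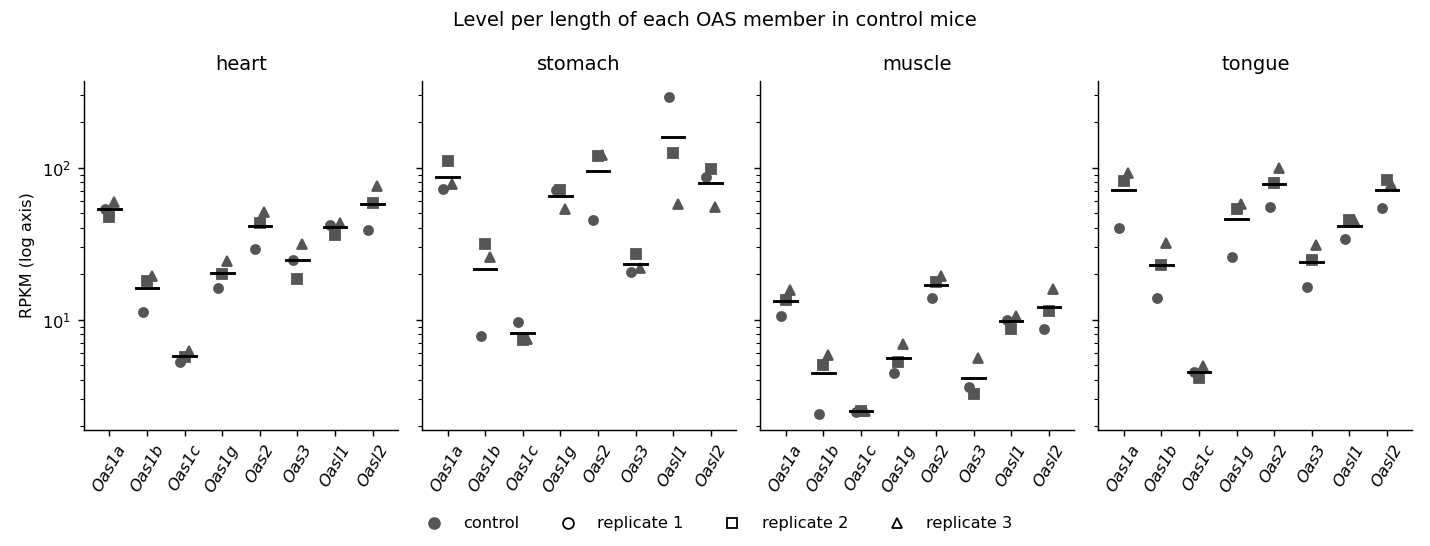
RPKM of each OAS member in the 3 control samples of each tissue (marker shape, replicate; line, mean) on a log axis. Oas1c is the lowest member in each tissue by its mean, and all 8 members have their lowest mean in the muscle.

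By edgeR's quasi-likelihood test across the 12 control samples, all 8 members were lower in the muscle than in each other tissue. In either direction 38.9% of the 18301 genes tested passed between heart and muscle, 56.7% between stomach and muscle and 43.3% between muscle and tongue. The background was 19.9% higher in the heart, 28.6% higher in the stomach and 22.0% higher in the tongue than in the muscle. Over the members, the log2 difference of heart minus muscle ran from 1.17 for Oas1c (SE 0.20) to 2.56 for Oas3 (SE 0.31), and that of stomach minus muscle from 1.64 for Oas1c (SE 0.20) to 3.96 for Oasl1 (SE 0.48). For muscle minus tongue it ran from -0.82 for Oas1c (SE 0.20, adjusted p = 0.00613) to -2.99 for Oas1g (SE 0.32). Scaling by library size alone moved the median of all genes to 0.94 for heart minus muscle, 0.89 for stomach minus muscle and -0.87 for muscle minus tongue, and relative to these medians all 8 members were still lower in the muscle. Of the 24 differences with the muscle, that of Oas2 with the heart was lost most often. It was not called without heart control replicate 2 (adjusted p = 0.0510) or 3 (0.0764) or muscle control replicate 1 (0.0760) or 2 (0.0558), and Oas1b not without muscle control replicate 1 (0.0521). Oas1c lost its calls against the heart (0.106) and the tongue (0.240) in a fit of all 24 samples. The summed CPM of 10 leukocyte markers was 96.9 to 107 in muscle controls against 239 to 952 in the controls of the other tissues. These sums were scaled within each tissue and not between tissues. On library size alone the median gene was also lower in the muscle, by the log2 values given above, so part of this gap is not particular to leukocyte markers. The part of these cells in the member levels was not tested.

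Between the heart, the stomach and the tongue, fewer members passed. For heart minus stomach, 3 of 8 were lower in the heart, as were 22.5% of all genes (46.7% in either direction): Oasl1 by a log2 difference of -1.93 (SE 0.44, adjusted p = 0.00358), Oas1g by -1.66 (SE 0.30, adjusted p = 0.000883) and Oas2 by -1.18 (SE 0.37, adjusted p = 0.0216). The call of Oas2 was lost without heart control replicate 1 (adjusted p = 0.0914) and without stomach control replicate 2 (0.0762) or 3 (0.0655). For stomach minus tongue, 2 of 8 were higher in the stomach against 18.1% of all genes (40.6% in either direction), Oasl1 by 1.91 (SE 0.44, adjusted p = 0.00466) and Oas1c by 0.82 (SE 0.20, adjusted p = 0.00594, and 0.243 in a fit of all 24 samples). For heart minus tongue, 1 of 8 passed, Oas1g with -1.16 (SE 0.30, adjusted p = 0.0110), where 16.4% of all genes were higher in the tongue and 32.3% passed in either direction. That call was lost without tongue control replicate 3 (adjusted p = 0.0519), without heart control replicate 1 (0.0526) and in a fit of all 24 samples (0.145). With the replicate number as a block 2 members passed, Oas1g and Oas2 (-0.92, edgeR adjusted p = 0.0134), where 16.3% of all genes were higher in the tongue.

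Oasl1 encodes a protein with ubiquitin-like domains that is known to hold back translation of Irf7, and its level varied most between the tissues. Its RPKM in control replicates 1, 2 and 3 was 293, 125 and 58.1 in the stomach, 33.8, 45.6 and 45.1 in the tongue, 42.1, 36.2 and 43.3 in the heart, and 9.99, 8.73 and 10.5 in the muscle. The 3 stomach samples were above all others and far apart from each other. Oas1g, 1 of the active OAS1 synthetases of the mouse, had 71.4, 71.5 and 53.4 RPKM in the stomach, 25.8, 53.2 and 58.0 in the tongue and 16.1, 20.03 and 24.5 in the heart, so that stomach and heart did not overlap while stomach and tongue did.

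Within each tissue the members were ordered by their control means, and the samples of most neighbours in the order overlapped. A gap between neighbours did not always part all members above it from those below. In heart controls Oas2 went down to 29.3 RPKM and Oas3 up to 31.3 RPKM. The control means of Oasl2, Oas1a, Oas2 and Oasl1 were the highest 4 in the heart and the muscle, and Oas1g was among the higher 5 in the stomach and the tongue. In the heart the order ran from Oasl2 (57.6 ± 18.3 RPKM), Oas1a (53.3 ± 5.98), Oas2 (41.1 ± 10.9) and Oasl1 (40.5 ± 3.79) to Oas3 (24.9 ± 6.34), Oas1g (20.2 ± 4.21), Oas1b (16.2 ± 4.36) and Oas1c (5.71 ± 0.463; SD, n = 3 each). Only Oasl1 and Oas3, and Oas1b and Oas1c, were neighbours whose samples did not overlap. In the stomach the order was Oasl1 (159 ± 121), Oas2 (95.4 ± 43.4), Oas1a (87.2 ± 20.7), Oasl2 (79.8 ± 22.0), Oas1g (65.4 ± 10.4), Oas3 (23.1 ± 3.57), Oas1b (21.7 ± 12.4) and Oas1c (8.12 ± 1.34), with a gap between Oas1g and Oas3 and overlap between all other neighbours.

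The tongue had Oas2 (78.5 ± 22.4 RPKM), Oasl2 (71.9 ± 15.7), Oas1a (71.5 ± 27.5), Oas1g (45.7 ± 17.4) and Oasl1 (41.5 ± 6.63) above Oas3 (23.996 ± 7.32) and Oas1b (22.9 ± 9.04), and Oas1c (4.52 ± 0.391) below all. The samples did not overlap between Oasl1 and Oas3 or between Oas1b and Oas1c, but Oas1g went down to 25.8 RPKM and Oas3 up to 30.9 RPKM. In the muscle the same quantities were 16.9 ± 2.69 for Oas2, 13.2 ± 2.64 for Oas1a, 12.03 ± 3.67 for Oasl2, 9.75 ± 0.925 for Oasl1, 5.56 ± 1.28 for Oas1g, 4.42 ± 1.80 for Oas1b, 4.14 ± 1.29 for Oas3 and 2.49 ± 0.0116 for Oas1c, with gaps between Oasl1 and Oas1g and between Oas3 and Oas1c. With the longest transcript in place of merged exons, Oasl2 came first in the heart, the muscle and the tongue. The 4 other Oas1 genes looked at were low, with Oas1h at 1.49 to 2.01 CPM on average in the heart, stomach and tongue controls and Oas1d and Oas1f too low to be tested in any tissue.

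The effect of SN-011 on the members was then examined in each tissue. Of the 32 member and tissue combinations, 31 had a lower fitted level with SN-011. Of all genes tested, 51.4% (heart), 49.8% (stomach), 55.5% (muscle) and 51.5% (tongue) had one. The members of a tissue share its samples, so the 32 combinations are not independent. None of the 32 passed the adjusted threshold of 0.05 in edgeR's quasi-likelihood test. The background of this test was low in the heart, where 0.848% of 16151 genes passed, and in the muscle, where 0.0141% of 14198 did, while in the stomach (17031 genes) and the tongue (16587 genes) 0 genes passed, or 0.0%. The median log2 fold change of the members was -0.26 (heart), -0.88 (stomach), -0.80 (muscle) and -0.52 (tongue), and that of all genes tested was -0.01, 0.00, -0.08 and -0.01.

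At an unadjusted p under 0.05, heart samples had 1 of 8 members lower (11.6% of all genes), stomach samples 5 (11.4%), muscle samples 2 (5.8%) and tongue samples 3 (7.33%). Every SN-011 sample lay below every control sample for 2 heart members (background 13.1%), 5 stomach members (15.2%), 4 muscle members (19.8%) and 1 tongue member (8.38%). The opposite separation was found for 0 members in any tissue, against 14.1%, 17.8%, 14.7% and 9.4% of all genes. DESeq2 called 1 member lower (heart, against 4.04% of all genes), 4 (stomach, 6.53%), 2 (muscle, 2.9%) and 1 (tongue, 1.69%). The exact test of edgeR called 1 member lower in the stomach, against 4.12% of all genes, and 1 in the tongue, against 1.12%. With 3 against 3 samples an exact permutation test of a single gene cannot go below 0.1.

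**Figure D2:**
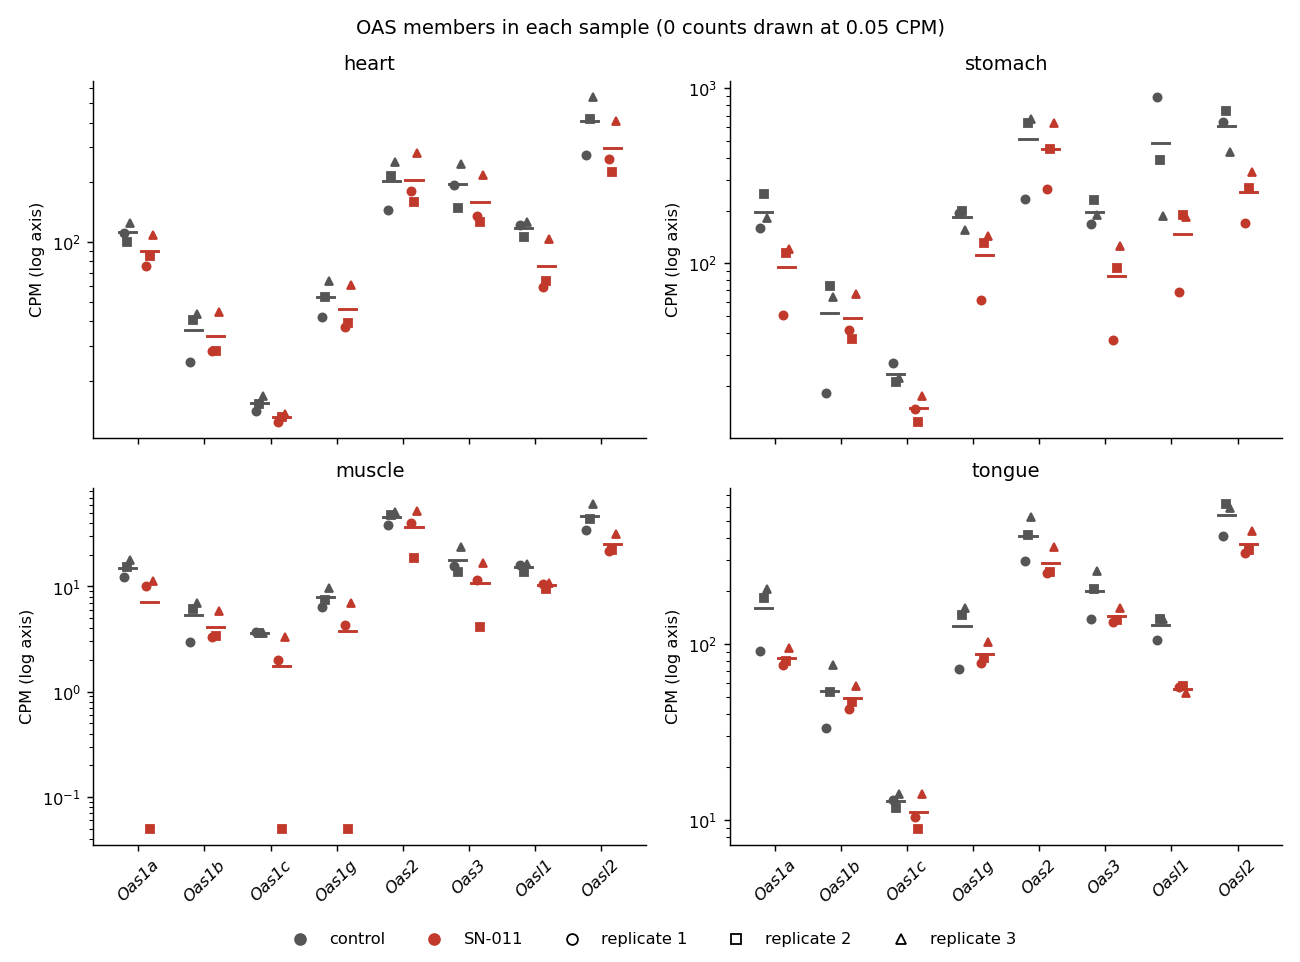
CPM of each OAS member in every sample, by tissue and treatment, on log axes, with 0 counts drawn at 0.05 CPM. The stomach panels show SN-011 samples below all controls for Oas1a, Oas1c, Oas1g, Oas3 and Oasl2, and in the muscle SN-011 replicate 2 is at 0 for Oas1a, Oas1c and Oas1g.

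**Figure D3:**
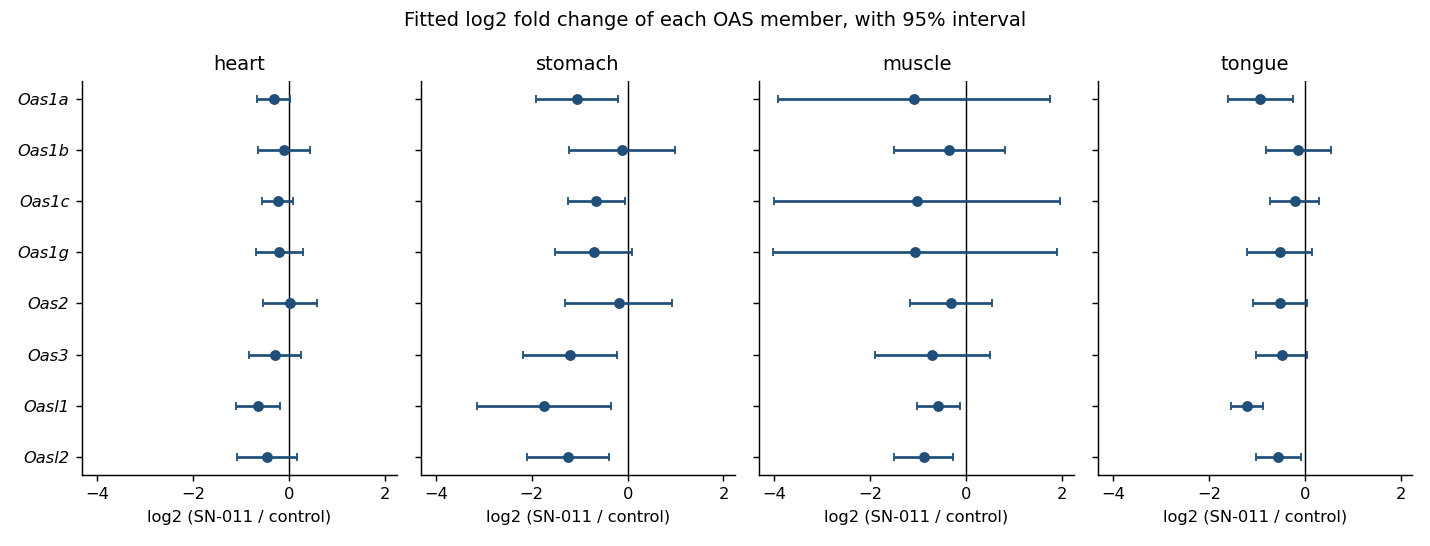
Fitted log2 fold change of SN-011 over control for each OAS member and tissue, with 95% intervals. All values but Oas2 in the heart (0.02) are below 0, and many intervals include 0.

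In the stomach, markers of keratin-rich epithelium differed between the groups as well. All 5 tested markers of tongue epithelium, of 6 listed, were higher with SN-011 without overlap (17.8% of all genes), with a median log2 fold change of 2.37. Their summed CPM was 116 to 246 in controls and 540 to 1611 with SN-011, and the mean CPM of the keratin gene Krt5 was 62.0 ± 23.8 and 320 ± 197 (SD, n = 3). Of the 8 stomach markers 7 were lower with a median over all 8 of -1.02, but only Atp4a, a subunit of the gastric proton pump, was lower without overlap, at 3277 ± 140 against 1675 ± 608 CPM (SD, n = 3). The summed CPM of the stomach markers was 50101 to 164938 in controls and 21479 to 124059 with SN-011. No marker of either list passed across all genes, and the part of the make-up of the stomach samples in the member values was not tested.

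Oasl1 had the lowest p-values of the family in the heart and the tongue. In the tongue its CPM was 106, 139 and 139 in controls and 57.1, 57.3 and 52.4 with SN-011. The groups were well apart, and the means, 128 ± 19.2 and 55.6 ± 2.80 (SD, n = 3), gave a log2 fold change of -1.20 (SE 0.14, edgeR adjusted p = 0.221). In the heart its CPM was 122, 106 and 126 in controls and 59.6, 63.9 and 103 with SN-011, again without overlap, though SN-011 replicate 3 lay just under the lowest control. The fold change was -0.64 (SE 0.20, edgeR adjusted p = 0.125).

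In the stomach Oasl1 was spread over 891, 389 and 187 CPM in controls, and SN-011 samples had 68.7, 188 and 184 CPM, so that control replicate 3 lay among them. The log2 fold change was -1.74 (SE 0.61, edgeR adjusted p = 0.140), and it was -0.998 without control replicate 1. The muscle values were smaller, 16.1, 13.8 and 16.3 CPM against 10.6, 9.38 and 10.9 CPM, and did not overlap, with a fold change of -0.58 (SE 0.19, edgeR adjusted p = 0.252). DESeq2 called Oasl1 in all 4 tissues, with adjusted p = 0.0292 in the heart, 0.0285 in the stomach and 0.0479 in the muscle. Over all alternatives its adjusted p ran from 0.00173 to 0.896 (heart), 0.00746 to 0.377 (stomach), 0.0479 to 0.732 (muscle) and 9.92e-08 to 0.714 (tongue).

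Oasl2, the neighbour of Oasl1, encodes a related protein with ubiquitin-like domains that, unlike Oasl1, has been shown to make 2-5A. In the stomach its CPM was 644, 743 and 435 in controls and 169, 268 and 333 with SN-011. The groups did not overlap, with means of 607 ± 157 and 257 ± 82.6 and a log2 fold change of -1.24 (SE 0.38, edgeR adjusted p = 0.110; DESeq2 adjusted p = 0.00881). In the muscle it had 34.3, 44.2 and 60.5 CPM in controls and 21.5, 22.4 and 31.2 CPM with SN-011, also apart, with a fold change of -0.88 (SE 0.26, edgeR adjusted p = 0.225; DESeq2 adjusted p = 0.0324). The groups overlapped in the heart (275, 417 and 537 against 263, 226 and 409 CPM, fold change -0.45) and the tongue (412, 621 and 589.7 against 329.6, 339.7 and 438 CPM, fold change -0.55).

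Oas1a, the main OAS1-type synthetase of the mouse, had its clearest separation in the stomach, with 159, 249.6 and 182 CPM in controls and 51.0, 114 and 120.3 CPM with SN-011. Every SN-011 sample was below every control, and the log2 fold change was -1.05 (SE 0.37, edgeR adjusted p = 0.141; DESeq2 adjusted p = 0.0488). In the tongue control replicate 1, at 90.95 CPM, lay among the SN-011 samples (76.1, 79.5 and 94.7), while the other controls had 181 and 205 CPM, and the fold change was -0.93 (SE 0.29, edgeR adjusted p = 0.321). In the heart it was -0.32, from 111, 100.3 and 125 CPM to 75.6, 84.6 and 109 CPM, with overlap.

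Oas1g, which shares long stretches with Oas1a, had 195, 199.9 and 155 CPM in stomach controls and 61.5, 130.004 and 144 CPM with SN-011, without overlap, and a log2 fold change of -0.71 (SE 0.35, edgeR adjusted p = 0.248). The fold change was -0.21 in the heart and -0.52 in the tongue, where the groups overlapped. Oas1c, the lowest member and a gene whose product is not known as an active synthetase, had 27.1, 20.95 and 22.0 CPM in stomach controls and 14.7, 12.5 and 17.5 CPM with SN-011, a fold change of -0.65 (SE 0.26, edgeR adjusted p = 0.171) with no overlap. It was also apart in the heart, by a small margin, at 14.1, 15.3 and 16.6 CPM against 12.4, 13.2 and 13.6 CPM, with a fold change of -0.23 (edgeR adjusted p = 0.371), and overlapped in the tongue with -0.21.

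Oas3, the largest synthetase, whose long product binds long double-stranded RNA, had 169, 229 and 190.0 CPM in stomach controls and 36.3, 93.7 and 125 CPM with SN-011. The groups were apart and the log2 fold change was -1.20 (SE 0.43, edgeR adjusted p = 0.141; DESeq2 adjusted p = 0.0483). In the other tissues its groups overlapped, with fold changes of -0.30 in the heart, -0.71 in the muscle and -0.48 in the tongue.

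Oas2 and Oas1b had the smallest differences in the heart and the stomach. Oas2, a synthetase with a pair of OAS units, had 144, 216 and 252 CPM in heart controls and 181, 158 and 280.1 CPM with SN-011, a log2 fold change of 0.02 with a 95% interval of -0.55 to 0.59. In the stomach it had 235, 636 and 669 CPM against 265, 453 and 634 CPM, with a fold change of -0.19 and an interval of -1.31 to 0.93. The groups overlapped in both, and in the tongue too (296, 415 and 527 against 253, 255 and 355 CPM, fold change -0.52). Oas1b, whose full-length form in some mouse strains is known to restrict flaviviruses, had fold changes of -0.10 (heart), -0.11 (stomach), -0.35 (muscle) and -0.13 (tongue), with overlapping groups in all 4. Its stomach values were 18.1, 74.6 and 64.0 CPM in controls and 41.4, 36.9 and 67.0 CPM with SN-011. In every tissue the 95% intervals of Oas2 and Oas1b include the fold change fitted for Oas1a, except that of Oas1b in the tongue, which runs from -0.81 to 0.55.

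Control replicate 1, the library set apart by its sex markers, had the lowest CPM of the 3 controls in all 4 tissues for Oas2 and Oas1b, as did 3.66% of the 13198 genes tested in all 4 tissues. Sex and treatment cannot be fully told apart in these samples, since the SN-011 groups held no such library. Without it, the tongue fold changes of 6 of 8 members passed in edgeR's quasi-likelihood test, against 8.04% of 17142 genes that passed as lower. These were Oasl1 (-1.32, adjusted p = 0.00104), Oas1a (-1.21, adjusted p = 0.00276), Oas1g (-0.80, adjusted p = 0.0133), Oas3 (-0.68, adjusted p = 0.0233), Oasl2 (-0.71, adjusted p = 0.0238) and Oas2 (-0.71, adjusted p = 0.0451). In the stomach the fold change of Oas2 went from -0.19 to -0.56 and that of Oas1b from -0.11 to -0.54 without it, and in the heart that of Oas2 went from 0.02 to -0.20. The stomach counts of Oasl1 went the other way, since control replicate 1 was there the highest sample.

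The muscle values rest in part on SN-011 replicate 2, the library with few genes detected. It had 0 counts of Oas1a, Oas1c and Oas1g, but 41 counts of Oas1b, 51 of Oas3, 115 of Oasl1, 229 of Oas2 and 275 of Oasl2. By counting error alone a count of 0 allows up to 0.210 CPM on total counts, before the scaling within the tissue. In a library with so few genes detected, a count of 0 sets no such bound on the level in that muscle. The other SN-011 samples had 10.1 and 11.2 CPM of Oas1a against 12.2, 15.3 and 17.7 CPM in controls. Without replicate 2 the muscle fold change went from -1.08 to -0.50 for Oas1a, from -1.06 to -0.48 for Oas1g, from -1.03 to -0.45 for Oas1c, from -0.71 to -0.33 for Oas3 and from -0.31 to 0.01 for Oas2, whereas that of Oasl1 (-0.58 and -0.52) and Oasl2 (-0.88 and -0.81) moved little. None of the 8 was called without it in edgeR's quasi-likelihood test, where the lowest adjusted p was 0.0606, for Oasl1. The share of all genes called in that fit is not given here.

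Whether the SN-011 differences themselves varied between tissues was tested by interaction terms over all 24 samples (19731 genes). In each of the 6 tissue pairs 0 members passed in edgeR's quasi-likelihood test, 0 had an unadjusted p under 0.05 and 0 passed in DESeq2. The share of all genes at that unadjusted p and in DESeq2 is not given here, so those counts have no background to be set against. For the adjusted edgeR call the background was 2.01% for heart and stomach, 0.00507% for heart and muscle and 0.0% for heart and tongue. It was 6.95% for stomach and muscle, 0.821% for stomach and tongue and 0.0355% for muscle and tongue. The median over all genes was 0.28 for stomach minus muscle, 0.18 for heart minus muscle and -0.17 for muscle minus tongue, and -0.07, 0.01 and 0.03 in heart minus stomach, heart minus tongue and stomach minus tongue. The lowest p-values were those of Oasl1, whose log2 fold change in the heart minus that in the stomach was 1.14 (95% interval -0.05 to 2.32, adjusted p = 0.316), and in the stomach minus that in the muscle -1.13 (-2.33 to 0.08, adjusted p = 0.239). Differences between tissues of more than a log2 unit are thus within these intervals for Oasl1 and were not detectable with 3 samples a group.

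The members were also set against each other within each sample, as log2 ratios of CPM + 0.5, a measure that a common scaling of all members leaves as it is. This measure was chosen after their values had been seen. Of the 28 pairs of members, the ratio separated all SN-011 from all control samples for 7 heart pairs (25.0%, against 26.0% over all pairs of genes tested), 5 stomach pairs (17.9%, background 31.5%), 4 muscle pairs (14.3%, background 33.3%) and 13 tongue pairs (46.4%, background 17.5%). Shares in the heart, stomach and muscle were near or under the background, and pairs that share a member are not independent.

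In the tongue, 5 of the 13 were ratios of another member to Oasl1 that were higher with SN-011, and the ratio of Oasl1 to Oasl2 was lower. Of the 13, 6 involved Oas1b, that of Oas1b to Oasl1 included, and in all 6 Oas1b was relatively higher with SN-011. The log2 ratio of Oas1a to Oas1b in the tongue was 1.44, 1.76 and 1.44 in controls and 0.82, 0.75 and 0.71 with SN-011, and that of Oas1b to Oas2 was -3.13, -2.95 and -2.80 against -2.55, -2.43 and -2.61. In the stomach the ratio of Oas1a to Oas2 was lower without overlap, at -0.56, -1.35 and -1.87 against -2.37, -1.98 and -2.39. The log2 ratio of Oas2 to Oasl1 was 1.48, 1.58 and 1.92 in tongue controls and 2.14, 2.14 and 2.75 with SN-011, and in the heart 0.24, 1.02 and 1.00 against 1.596, 1.30 and 1.43. The ratio of Oas2 to Oasl2 was higher with SN-011 in the heart (-0.93, -0.95 and -1.09 against -0.54, -0.51 and -0.55) and in the stomach (-1.45, -0.22 and 0.62 against 0.64, 0.75 and 0.93). For Oas1a and Oas1g, which share long stretches, the tongue ratio was 0.33, 0.32 and 0.35 in controls and -0.04, -0.07 and -0.11 with SN-011. The groups overlapped in the heart, stomach and muscle. The methods of the study count uniquely mapped read pairs, which leaves out pairs that map to both genes, while the submitters' notes name another counter, and the part of shared stretches in that ratio was not tested. Exact permutation p-values of these ratios are 0.1, the smallest the design allows.

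**Figure D4:**
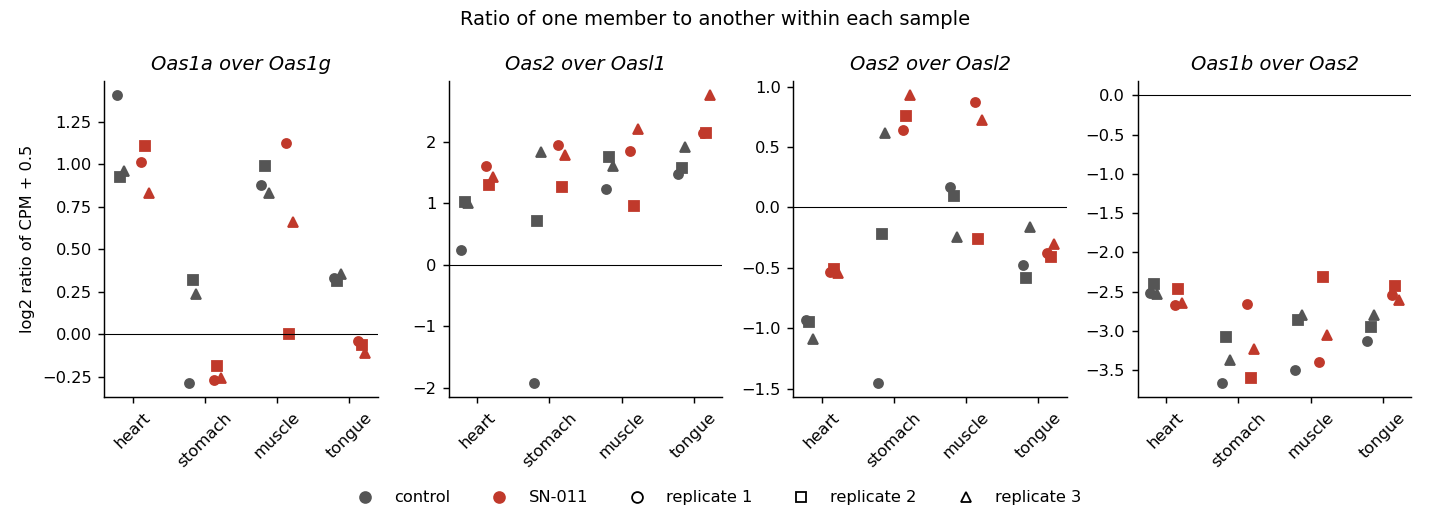
Log2 ratios of CPM + 0.5 of Oas1a to Oas1g, Oas2 to Oasl1, Oas2 to Oasl2 and Oas1b to Oas2 (vertical axis) in every sample, by tissue and treatment. The Oas1a to Oas1g ratio in the tongue is 0.32 to 0.35 in controls and -0.11 to -0.04 with SN-011.

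Summed over the 8 members, heart controls had 927, 1095 and 1409 CPM and SN-011 samples 793, 738 and 1238 CPM, with overlap. In the stomach the sums were 2337, 2542 and 1905 CPM against 708, 1296 and 1625 CPM, and all SN-011 samples were lower. The muscle sums were 129.99, 151 and 189 CPM against 103, 58.0 and 138 CPM, and the tongue sums 1160.4, 1773 and 1968 CPM against 981, 1008 and 1276 CPM, both with overlap. The make-up of the sum, taken as shares of summed RPKM, was dominated in stomach control replicate 1 by Oasl1, at 48.3%, where control replicates 2 and 3 had 21.2% and 13.8%. In the tongue the share of Oasl1 was 11.9 ± 1.85% in controls and 7.87 ± 1.39% with SN-011, and that of Oas1b was 6.25 ± 0.875% and 8.96 ± 0.280% (SD, n = 3).

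**Figure D5:**
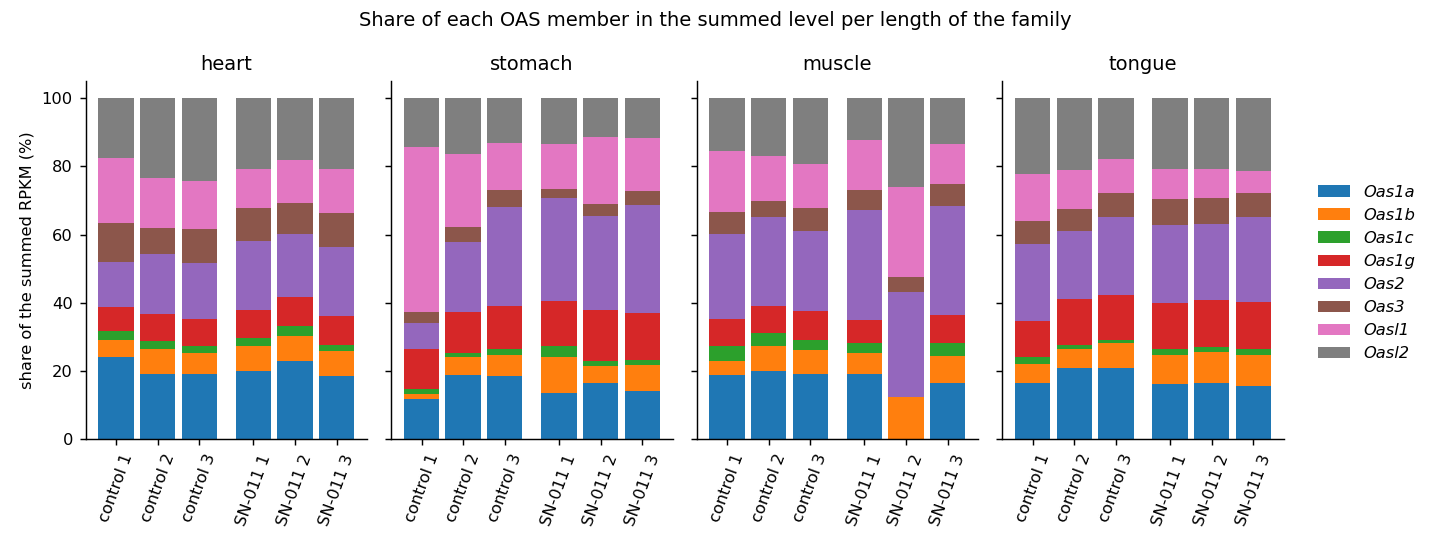
Share of each OAS member in the summed RPKM of the family, in percent, for every sample. Stomach control replicate 1 stands out by its Oasl1 share of 48.3%, and muscle SN-011 replicate 2 lacks Oas1a, Oas1c and Oas1g.

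The other genes of the pathway were taken from short lists. Of 7 sensors and editors of double-stranded RNA (Ifih1, Ddx58, Dhx58, Eif2ak2, Mavs, Tlr3 and Adar), 0 passed in edgeR's quasi-likelihood test in any tissue. At an unadjusted p under 0.05 in that test, 6 (heart), 5 (stomach), 4 (muscle) and 5 (tongue) were lower. The share of all genes was 11.6%, 11.4%, 5.8% and 7.33% in the same order. Their median log2 fold change was -0.58, -1.12, -1.003 and -0.67. Ifih1, the sensor MDA5, had 107 ± 12.8 CPM in heart controls and 68.9 ± 8.01 CPM with SN-011 (-0.63, adjusted p = 0.0622), and in the stomach 126 ± 12.04 and 41.9 ± 14.2 CPM (-1.59, adjusted p = 0.0672). Mavs, the adaptor of these sensors, differed in the other direction in the heart (0.34) and the muscle (0.48).

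Of the enzymes that take 2-5A apart, neither passed in any tissue in edgeR's quasi-likelihood test. Pde12 had 26.2 ± 4.34 CPM in stomach controls and 14.8 ± 2.61 CPM with SN-011, without overlap, a log2 fold change of -0.83 (edgeR adjusted p = 0.118). Its fold change was -0.35 in the heart, also without overlap. It was -0.32 (muscle) and -1.32 (tongue) with overlapping groups. Akap7 was apart only in the stomach, at 31.5 ± 3.21 and 21.3 ± 2.47 CPM (-0.57, edgeR adjusted p = 0.170). Abce1, a ribosome recycling factor, had log2 fold changes of -0.01 (heart), -0.26 (stomach) and 0.01 (muscle), and its tongue mean was 74.0 CPM in both groups.

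Upstream, Stat2 and Irf9, which act in interferon signalling, did not pass in any tissue. Stat2 had log2 fold changes of -0.43 (heart), -0.33 (stomach), -0.84 (muscle) and -0.51 (tongue), with no overlap in the muscle and the tongue. Irf9 had -0.02, -0.11, -0.74 and -0.33 in the same order, with no overlap in the muscle. Of 4 IRF genes 0 passed. Irf7, which drives interferon genes, was at 1302 ± 68.1 CPM in heart controls and 1301 ± 225 CPM with SN-011, and was lower without overlap in the stomach (-0.68), the muscle (-0.58) and the tongue (-0.42).

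The 10 leukocyte markers moved in part with the members. They had a negative log2 fold change for 10 of 10 (heart), 7 (stomach), 4 (muscle) and 8 (tongue), against 51.4%, 49.8%, 55.5% and 51.5% of all genes. Their summed CPM was 492 to 952 in heart controls and 473 to 607 with SN-011, 239 to 332 and 145 to 328 in the stomach, 96.9 to 107 and 80.8 to 109.9 in the muscle, and 349 to 384 and 229 to 309.7 in the tongue. The groups overlapped in all tissues but the tongue. In bulk tissue, fewer cells of a type and less RNA per cell cannot be told apart, and the part of leukocytes, or of the stomach RNA seen in heart, muscle and tongue controls, in the member values was not tested.

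The genes whose pattern was most like that of the family were found by the root mean square difference of centred log2 levels over the 8 groups of tissue and treatment, among 15829 genes. The nearest to the mean of the members were Gm6548 (0.150), H2-M2 (0.196), Pqlc3 (0.204), Rasgrp1 (0.219) and Ttc39b (0.222). For Oas1a and for Oas3 the nearest gene of all was Oasl2, at 0.195 and 0.238, and for Oasl2 it was Ifi44, at 0.186, another interferon-induced gene. Oasl1 was nearest to Lgals9 (0.241), Oas1g to Arap2 (0.148), Oas2 to F11r (0.154), Oas1b to Nudt5 (0.187) and Oas1c to Tmem260 (0.107). Within the family the least alike were Oas3 and Oasl1 (0.859) and Oas1c and Oas1g (0.851), and Oas1a and Oas1g differed by 0.488. With a pseudocount of 1 in place of 0.5 the nearest gene of Oas1b, Oas1c and Oas2 was another. In the list for the mean of the members, Kif20b and Clic1 then took the places of H2-M2 and Rasgrp1.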

How the data were processed

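The samples were 24 polyA RNA-Seq libraries, 3 control and 3 SN-011 for each of 4 tissues. The authors deposited raw counts per Ensembl gene, with no normalisation, in 1 file a sample. The submitters' processing notes name HISAT2, HTSeq and mm10, while the study's methods name Trimmomatic, hisat2, uniquely mapped read pairs and featureCounts, so the counter is uncertain, and versions are not given in the sources used here. By those methods, pairs that map to both Oas1a and Oas1g were not counted.

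Symbols, exons and lengths came from GENCODE M21, which held 54495 of the 54532 genes. Counts were tested with edgeR 4.0.16 in R 4.3.3: filterByExpr (minimum count 10, minimum total 15), TMM scaling, glmQLFit and glmQLFTest, with p-values adjusted by Benjamini-Hochberg across every gene tested and a threshold of 0.05. SN-011 was set against control within each tissue, tissue pairs were fitted on the 12 controls, and interactions on all 24 samples. CPM was scaled within a tissue, and RPKM over all samples. The floor was 3 counts, and intervals are 95% intervals. Fits of the heart and the tongue, and the interaction of heart and stomach, were checked on simulated counts. These had large changes and the same spread for all genes, so the check does not cover the spreads found here.

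The alternatives were DESeq2 1.42.0 with its own test or size factors, edgeR's exact test, library size alone, no filter, the joint fit, the replicate block, and leaving out each replicate. Control replicate numbers paired heart with muscle (correlations of deviations 0.246 to 0.547) and muscle with tongue (0.163 to 0.435), each over 0.1. Heart with tongue ran from 0.0715 to 0.467, and each of the remaining tissue pairs also had a correlation under 0.1. Numbers did not pair control with SN-011 within a tissue. Tests of tissue pairs and of interactions took all samples as independent, save with the replicate block. The members, the gene lists and the tests were chosen with earlier results of these data known, and the within-sample ratios after the values had been seen. The text names all 8 members, genes of the lists (other Oas1 genes, the 2-5A pathway, sensors and editors of double-stranded RNA, interferon signalling, IRF genes, markers of 4 tissues and of leukocytes) and the genes nearest to the members in pattern. Some genes of these lists, and counts over the lists that hold them, are not reported here. Promoter windows came from RefSeq (GRCm38.p6), with an entry for 6 of 8 members.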

Additional observations from a re-analysis of the deposited data

How the results depend on the processing

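The number of members called lower with SN-011, 0 in every tissue, became 1 (heart), 4 (stomach), 2 (muscle) and 1 (tongue) with DESeq2. It became 1 in the stomach and 1 in the tongue with edgeR's exact test, 2 in the stomach in the joint fit (7.18% of all genes lower), and 1 in each of the heart (3.92%), stomach (1.84%) and tongue (0.0461%) with no filter on low counts. Leaving out 1 replicate gave 0 to 6 members in the tongue (8.04% of all genes where 6 passed). Between control tissues, heart against stomach had 5 members with DESeq2 (25.6% of all genes higher in the stomach). Heart against tongue had 2 with DESeq2 (18.4% higher in the tongue), 0 in the joint fit, 2 with the replicate block (16.3%) and 0 to 2 when leaving out 1 replicate (2879 of 19240 genes and 3593 of 19228 where 2 passed), and stomach against tongue had 1 in the joint fit (16.9% higher in the stomach). The SN-011 difference of stomach against muscle gave 0 to 1 without 1 replicate (6.52% where 1 passed, without stomach control replicate 3). The cause of these changes was not tested.

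Some values near 0 changed sign. With library size alone, which moved the median log2 fold change of all genes to -0.16 (heart), 0.18 (stomach), -0.31 (muscle) and 0.06 (tongue), Oas2 in the heart was -0.12 and Oas1b in the stomach 0.0017. Relative to those medians they were 0.04 and -0.17, and the same scaling gave 0.0078 for Oasl1 in heart minus tongue and 0.012 for Oas1b in stomach minus tongue. With no filter Oas2 in the heart was -0.0057 and Oasl1 in heart minus tongue 0.022. When leaving out 1 replicate, Oas2 ran from -0.28 to 0.19 (heart), -0.56 to 0.088 (stomach) and -0.63 to 0.0051 (muscle). Oas1b ran from -0.37 to 0.043 (heart), -0.54 to 0.25 (stomach) and -0.39 to 0.18 (tongue). Of control differences, heart minus stomach ran from -0.053 to 0.27 for Oas3. Heart minus tongue ran from -0.15 to 0.067 for Oasl1 and -0.15 to 0.29 for Oas3. Stomach minus tongue ran from -0.053 to 0.33 for Oasl2, -0.30 to 0.13 for Oas3, -0.46 to 0.29 for Oas1b and -0.033 to 0.47 for Oas1a.

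Samples with the same replicate number did not deviate together within a tissue, with correlations of -0.371 to 0.273 over 10349 genes and 2 of 12 over 0.1, and 10 of 24 samples correlated best with their own number. The numbers were therefore not taken to pair samples within a tissue. Between tissues, 13 of 18 control correlations were over 0.1 (-0.139 to 0.547), all 3 of heart with muscle and of muscle with tongue among them, and 4 of 18 of SN-011. In 29 of 36 comparisons between tissues for controls and 28 of 36 for SN-011, a sample correlated best with its own number. Samples of different tissues are thus not shown to be independent. With the replicate block the number of members called between control tissues stayed as in the main fit, save in heart against tongue. The share of all genes called with it is not given here for the unchanged pairs. It called 0 members in each difference of the SN-011 change between tissues. With the replicate block 0 members were called in any tissue, and Oas1b in the stomach had a log2 fold change of 0.075.

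With 3 samples a group, differences smaller than the printed intervals were not detectable. Counts of Oas1a and Oas1g are uncertain because of their shared stretches. Counting error at 0 allows 0.163 to 0.210 CPM on total counts, before the scaling within a tissue. Levels per length depend on the transcript chosen, with 24 of 64 alternative levels moved by over 1 SD.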
